A study of Mus musculus with 2 samples.

Results

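The genes described here are 10 members of the actin cytoskeleton, out of 32285 genes counted in the series. They were picked by name, by a rule that uses no measured value, but with earlier results of these data known. They comprised the cytoplasmic actins Actb and Actg1, the monomer-binding genes Tmsb4x, Tmsb10 and Pfn1, the severing factor Cfl1, Coro1a and Arpc1b of branched filament networks, the filament bundler Lcp1 and the membrane linker Msn. All 10 had UMIs (unique molecular identifiers, each standing for a captured transcript) in every cell type of both libraries. The study made 2 single-cell libraries from blood leukocytes enriched for neutrophils by negative selection. The WT library came from C57BL/6J mice, and the APP/PS1 library from transgenic mice that express mutant human amyloid precursor protein and presenilin 1 and deposit amyloid in the brain. Both groups were untreated females of 7 months, and the cells of 3 mice were pooled for each library. The promoter of the transgenes and the strain background of the APP/PS1 mice are not given in the sources used here. With 1 library per genotype, genotype cannot be told apart from library or preparation, and no test between genotypes was possible. Values are given with exact 95% intervals, which cover counting error only and not the difference between mice.

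Actin exists as free monomers and as filaments, and a cell shifts it between these states to crawl, engulf particles and change shape. The thymosins hold monomers in reserve, profilin delivers them to growing ends, cofilin severs old filaments, and the ARP2/3 complex starts new branches. Neutrophils depend on this cycle to leave the blood and to take up microbes.

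The WT library held 17123 cells and 92458623 UMIs, and the APP/PS1 library 17645 cells and 84870864 UMIs. After filtering, 14564 and 15208 cells were kept, and 63 kept barcodes occurred in both libraries. Clusters were named from marker genes, so each name means cells like that type. Neutrophils numbered 7585 in WT and 9586 in APP/PS1, of 29772 cells in all. Their 7 markers were all detected and summed to 180950 CPM (UMIs scaled to a group total of 1e6) in WT and 153403 in APP/PS1. One cluster within the neutrophils (3814 cells) was led by platelet genes, so results are also given by cluster number and without it. Basophils (72 and 43 cells) and platelets (16 and 16 cells) were too few to be ranked, which left 8 cell types. Orders of cell types below are among these 8. Of the erythroid cells 48.75% were among the cells with the highest doublet scores, and of a cluster led by Igha and left unnamed 25.67%. The neutrophil markers summed to 62163 (WT) and 51050.5 CPM (APP/PS1) in that cluster, and the B cell markers to 709 and 3395 CPM. The part of RNA from other cells in its values was not tested.

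Neutrophils devoted the largest share of their UMIs to the 10 genes among the 8 ranked cell types. In WT the genes took up 5.47% of neutrophil UMIs (5.46% to 5.48%), and in APP/PS1 6.03% (6.02% to 6.04%). The unnamed cluster led by Igha followed with 4.77% and 4.97%, and NK cells with 4.68% and 4.82%. Monocytes and T cells lay in the middle of the range. Monocytes had 4.28% and 4.22%, nonclassical monocytes 4.26% and 4.46%, and T cells 3.51% and 3.68%. B cells had 2.23% and 2.16%, and erythroid cells 1.64% and 2.21%, and the intervals of this pair overlapped in APP/PS1. Without the cells of highest doublet score, erythroid cells had 1.16% and 1.87%. In summed counts of this kind, less RNA of a gene per cell and fewer cells that express it cannot be told apart. The neutrophil share stayed above that of the other 7 types when library size was computed without the members, by TMM, or without the most abundant gene classes. The last place of erythroid cells did not hold. Against neutrophils their sum was -0.97 log2 by TMM and -0.30 without abundant gene classes, and that of B cells -2.16 and -1.09.

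The median WT neutrophil drew 5.44% of its UMIs from the 10 genes, with 4.33% at the 10th and 6.80% at the 90th percentile of cells. The median APP/PS1 neutrophil drew 6.01%, with 4.72% and 7.57% at the same percentiles. The whole distribution lay higher in APP/PS1, and the cells of both libraries overlapped over most of their range. WT erythroid cells were more spread around their median of 1.68%, from 0.132% to 3.19%. The neutrophil markers summed to 33636 (WT) and 41119 CPM (APP/PS1) erythroid cells, and their part in the values there was not tested.

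**Figure D1:**
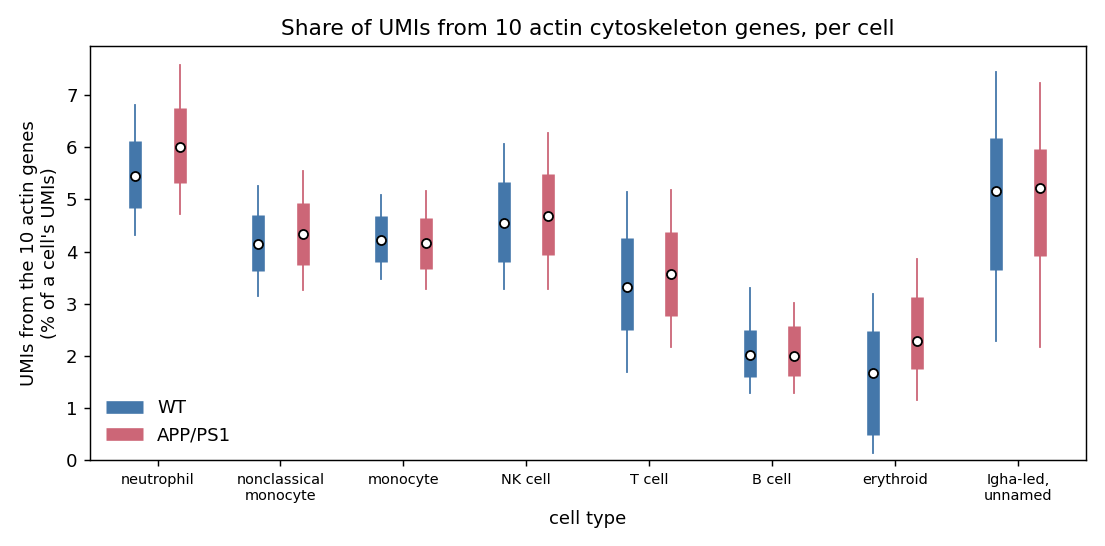
Share of each cell's UMIs, in percent, that came from the 10 actin cytoskeleton genes, by cell type and library. Dots are medians over cells, thick bars span the 25th to 75th and thin lines the 10th to 90th percentile. Among the 8 ranked types plotted, neutrophils had the highest medians, 5.44% in WT and 6.01% in APP/PS1.

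Most of the neutrophil share came from a single gene. Tmsb4x supplied 54.3% of the members' UMIs in WT and 56.1% in APP/PS1 neutrophils, and Actb supplied 23.2% and 22.0%. The other 8 genes together made up 1.23% and 1.32% of all neutrophil UMIs. These shares describe counted UMIs and were not read as an order of transcript levels between genes. Below, the level of each gene was compared with itself across cells, apart from the ratios within the actins and within the thymosins.

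The cytoplasmic actins, which build the filaments, were abundant in every type. Actb (chromosome 5, 142903115 to 142906754, minus strand, GRCm38) stood at 12681 (WT) and 13272 CPM (APP/PS1) neutrophils. It was lowest in erythroid cells, at 3807 and 4970 CPM, and overlapped B cells there in APP/PS1. Its highest level exceeded its lowest 3.33-fold in WT and 2.67-fold in APP/PS1. Without abundant gene classes in library size, Actb against neutrophils was -0.28 log2 in erythroid cells and -0.99 in B cells. In WT, neutrophils led the ranked types, and monocytes and NK cells could not be separated beyond counting error. In APP/PS1 the Igha-led cluster (13280.2 CPM) and neutrophils overlapped at the top.

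Actg1 (chromosome 11, 120345690 to 120348542, minus strand, GRCm38) was highest in neutrophils among the ranked types, at 4364 and 4679.95 CPM. The unranked basophils, at 6828 and 6318 CPM, and platelets, at 5751 and 7193 CPM, were higher in few cells. Monocytes had 4289 (WT) and 3460 CPM (APP/PS1), and B cells had 1337 and 1282 CPM. The monocytes thus moved from just below the neutrophils to well below them. Actg1 was the only one of the 9 members with a RefSeq promoter entry to hold a CArG box, the site of serum response factor, in the 250 bases before the RefSeq start. Actb had no entry and was not examined. The site is printed because this factor is known to bind actin gene promoters, with the matched bases in capitals and 10 bases on each side.

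Actg1, chr11:120348566-120348595, minus strand, GRCm38.p6 (RefSeq): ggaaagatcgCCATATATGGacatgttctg

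The box, CC then any 6 of A or T then GG, reads the same on both strands and lay 90 to 81 bases before the RefSeq start, which lies inside the GENCODE gene span given above and not at its end. The match in 1 of the 9 members is a share of 11.1%. Among all 27025 genes with an entry 439 (1.62%) held one. A match describes the letters of this window and says nothing of binding.

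The ratio of the actins differed between cell types more than between libraries. Neutrophils of WT had 0.344 Actg1 UMIs per Actb UMI (0.342 to 0.347), and those of APP/PS1 0.353 (0.350 to 0.355). NK, T and B cells were lower, from 0.234 to 0.249 in WT and from 0.225 to 0.247 in APP/PS1. Monocytes were higher, at 0.415 in WT and 0.365 in APP/PS1. In the finer clustering, cells named monocytes had 0.424 and 0.385. The MHC class II-high monocytes or dendritic cells had 0.401 and 0.335. Nonclassical monocytes had 0.288 and 0.282. Basophils reached 0.502 and 0.545 in few cells. Both actins have near-identical copies and processed pseudogenes, so reads may have been split or dropped in counting, and the ratio is best read across cell types. The same holds for the thymosins, Pfn1 and Cfl1.

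In neutrophils the thymosins stood at opposite ends of the ranked cell types. Across the ranked types and libraries, however, their levels were nearly unrelated (Pearson r = -0.06). Tmsb4x (chromosome X, 167207093 to 167209315, minus strand), which holds monomers in reserve, was highest in neutrophils at 29706 (WT) and 33843 CPM (APP/PS1). In WT the Igha-led cluster (26110 CPM) and NK cells (25669.5 CPM) followed with overlapping intervals, and in APP/PS1 NK cells at 26660 CPM. B cells had 10640 and 10377 CPM. In the few platelets it reached 75512 and 96726 CPM.

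Tmsb10 (chromosome 6, 72957347 to 72958748, minus strand), a close paralogue with the same kind of activity, was lowest in neutrophils of all 8 types. WT neutrophils had 88.8 CPM (84.9 to 92.9) and APP/PS1 neutrophils 77.7 CPM (74.5 to 80.9). Monocytes had 3105 and 2742 CPM, NK cells 2558 and 2600 CPM, and T cells 2594 and 2542 CPM. The highest type exceeded neutrophils 35.0-fold in WT and 35.3-fold in APP/PS1, the widest range of any member. This direction held in all 7 other types under each way of setting library size. The 6 monocyte markers, all detected in neutrophils, summed there to 451 and 414 CPM, against 5672 and 5765 CPM in monocytes, and the part of RNA from other cells in the low neutrophil level was not tested.

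WT neutrophils accordingly had 0.00299 Tmsb10 UMIs per Tmsb4x UMI (0.00286 to 0.00313), and APP/PS1 neutrophils 0.00229 (0.00220 to 0.00239). T cells had 0.151 and 0.137, and monocytes 0.164 and 0.135. Nonclassical monocytes lay between, at 0.0424 and 0.0442. The ratio of neutrophils as a whole thus lay below that of every other ranked type, the nearest being erythroid cells of APP/PS1 at 0.0217. Without the cells of highest doublet score, erythroid cells had 0.0238 and 0.00992. An erythroid cluster of the finer clustering (319 cells) had 0.00881 and 0.00523. The neutrophil cluster led by Camp, Ngp and Ltf had 0.00669 and 0.00740, so subsets of these types were not separated. The few platelets had 0.00155 and 0.00205.

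**Figure D2:**
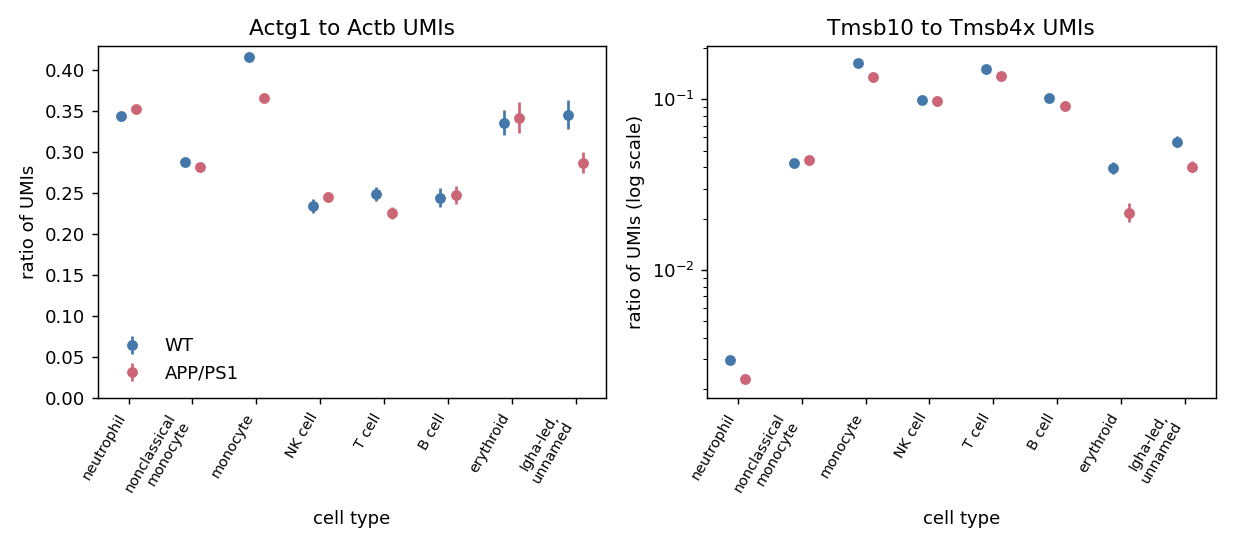
UMIs of Actg1 per UMI of Actb (left) and of Tmsb10 per UMI of Tmsb4x (right, log axis) by cell type and library, with 95% counting intervals. Neutrophils sit near 0.35 on the left and below all other ranked types on the right.

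Pfn1 (chromosome 11, 70651850 to 70654644, minus strand), which encodes profilin, was highest in NK cells at 2019 and 2502 CPM. Neutrophils had 1396 (WT) and 1877 CPM (APP/PS1). In APP/PS1 they overlapped nonclassical monocytes, at 1840 CPM. Against neutrophils, Pfn1 in NK cells was 0.47 higher on the log2 scale as the mean of the libraries, but under TMM library sizes the value was -0.45, and nonclassical monocytes also turned from 0.03 to -0.80.

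Cfl1 (chromosome 19, 5490455 to 5495201, plus strand), which encodes cofilin, stood at 668 (WT) and 763 CPM (APP/PS1) neutrophils. Monocytes led in WT at 890 CPM, overlapping NK cells at 886 CPM, and NK cells led in APP/PS1 at 926 CPM. Erythroid cells were lowest at 224 and 315 CPM. Neutrophils ranked 5 of 8 in both libraries. Under TMM library sizes, however, Cfl1 was lower than in neutrophils in all 4 types ranked above them (monocytes, nonclassical monocytes, NK cells and T cells). B cells, at -1.12 log2 against neutrophils, were then below erythroid cells, at -0.81.

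Coro1a (chromosome 7, 126699773 to 126707787, minus strand), a coronin that binds filaments and ARP2/3, was highest in nonclassical monocytes at 1773 and 1787 CPM. Neutrophils had 1526 and 1622 CPM, and NK cells 873 and 813 CPM. Arpc1b (chromosome 5, 145114215 to 145130705, plus strand), a subunit of the ARP2/3 complex, stood at 1075 and 1219 CPM in neutrophils. Monocytes had 1120 and 1206 CPM of it, and B cells 428 and 417 CPM. Neutrophils, monocytes and nonclassical monocytes were above NK, T and B cells for both genes. Under TMM library sizes, Coro1a in monocytes and nonclassical monocytes, and Arpc1b in monocytes, were below neutrophils.

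Lcp1 (chromosome 14, 75131101 to 75230842, plus strand), which encodes the bundling protein L-plastin, was highest in neutrophils in both libraries. Neutrophils had 2550.3 (WT) and 2279 CPM (APP/PS1). Nonclassical monocytes followed in WT at 1502 CPM, and monocytes had 828 and 671 CPM. Lcp1 was lower in each of the 7 other types than in neutrophils under every way of setting library size.

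Msn (chromosome X, 96096042 to 96168552, plus strand), which encodes moesin, a linker of filaments to the membrane, was highest in nonclassical monocytes at 1429 and 1394 CPM. Neutrophils had 659.7 and 651 CPM, and erythroid cells 274 and 309 CPM. Nonclassical monocytes remained above neutrophils under each way of setting library size. Erythroid cells turned to 0.12 log2 above neutrophils without abundant gene classes in library size.

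**Figure D3:**
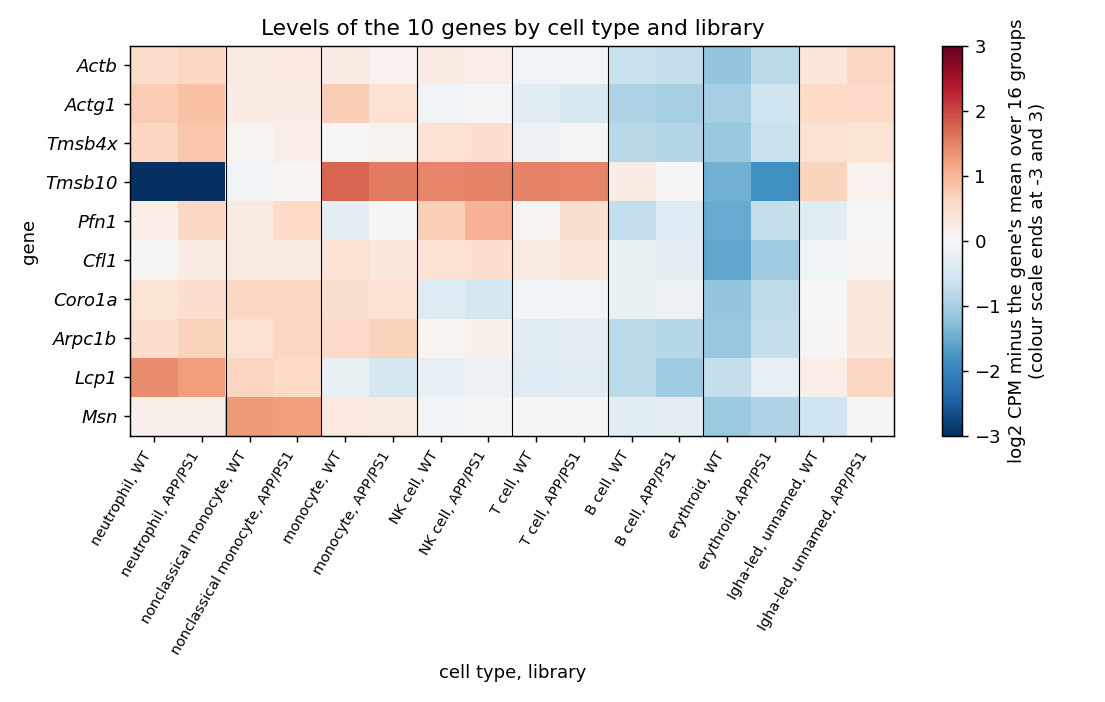
Level of each member in each cell type and library as log2 CPM minus the member's mean over the 16 groups, on a colour scale that ends at -3 and 3. Tmsb10 in neutrophils lies beyond the lower end, while Lcp1 is highest there.

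Across the 16 groups of 8 types and 2 libraries, Actb and Tmsb4x had the most similar pattern of any pair of members (Pearson r = 0.96 of log2 CPM). Tmsb10 and Lcp1 had the most opposed pattern (r = -0.57). Outside the members, among 8373 genes with a UMI in every group, the genes most like the members' mean were Arpc4 (r = 0.974), Wdr1 (0.971), Actr3 (0.966), Rsrp1 (0.963) and Cdc42 (0.962). Arpc4 and Actr3 are ARP2/3 subunits, and Wdr1 aids cofilin. The points share libraries, depth and total-count scaling, and these values describe the groups only.

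Between genotypes, differences in neutrophils were small next to the differences between cell types. The summed members were 0.14 higher on the log2 scale in APP/PS1 neutrophils (0.14 to 0.14). None of the 10 members passed a difference of 0.5 log2, against 5.82% of the 6147 genes that reached 200 UMIs in either library (3.37% higher and 2.46% lower). One member, Pfn1, passed 0.25 log2, against 23.2% of those genes. The members' median was 0.09 and that of all genes 0.06.

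Pfn1 had the largest difference, 0.43 (0.41 to 0.45), which is 1.35-fold. Cfl1 at 0.19 (0.16 to 0.22), Tmsb4x at 0.19 (0.18 to 0.19) and Arpc1b at 0.18 (0.16 to 0.21) had overlapping intervals. Actg1 was higher by 0.10 (0.09 to 0.11), Coro1a by 0.09 (0.07 to 0.11) and Actb by 0.07 (0.06 to 0.07). Tmsb10 and Lcp1 were lower in APP/PS1, at -0.19 (-0.28 to -0.11) and -0.16 (-0.18 to -0.15). The interval of Msn, -0.02 (-0.05 to 0.01), included 0. The neutrophil marker sum was lower in APP/PS1 and the platelet marker sum higher (806 and 994 CPM), and their part in these differences was not tested.

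Pfn1 was higher in APP/PS1 in all 8 ranked types. The log2 difference was 0.26 in monocytes (0.23 to 0.29), 0.31 in nonclassical monocytes and in NK cells, 0.39 in T cells and 0.32 in B cells. It was 0.35 in the Igha-led cluster and 0.78 (0.63 to 0.92) in erythroid cells. In erythroid cells the median of all counted genes was itself 0.19. The erythroid markers summed there to 629366 (WT) and 562568 CPM (APP/PS1), and their part in the erythroid values was not tested. Among the 1536 genes with enough UMIs in all 8 types, 3 genes (0.195%) were higher by over 0.25 in every type, namely Pfn1, Jun and Pmaip1. This count was made after the values of Pfn1 were seen, and a difference shared by all types cannot be told apart from one between the libraries.

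The other members varied in direction with cell type. Tmsb4x was higher in APP/PS1 in 6 of 8 types and Arpc1b in 7 of 8, while Tmsb10 was lower in 6. The intervals of Arpc1b in NK cells (-0.04 to 0.15) and T cells (-0.04 to 0.18) included 0. That of Tmsb10 in T cells (-0.08 to 0.02) did so too. In monocytes Actg1 was lower by -0.31 (-0.33 to -0.29) and Lcp1 by -0.30 (-0.34 to -0.27), whereas the summed members differed by only -0.02. The neutrophil markers summed to 11730 (WT) and 8494 CPM (APP/PS1) monocytes, and their part in these values was not tested. No member passed 0.5 log2 in monocytes, nonclassical monocytes, NK cells, T cells or B cells, where 3.16%, 2.46%, 2.13%, 5.24% and 7.06% of genes did. Pfn1 passed it in erythroid cells, as did 18.9% of genes there. Msn (0.64) and Tmsb10 (-0.53) passed it in the Igha-led cluster, as did 26.6% of genes.

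**Figure D4:**
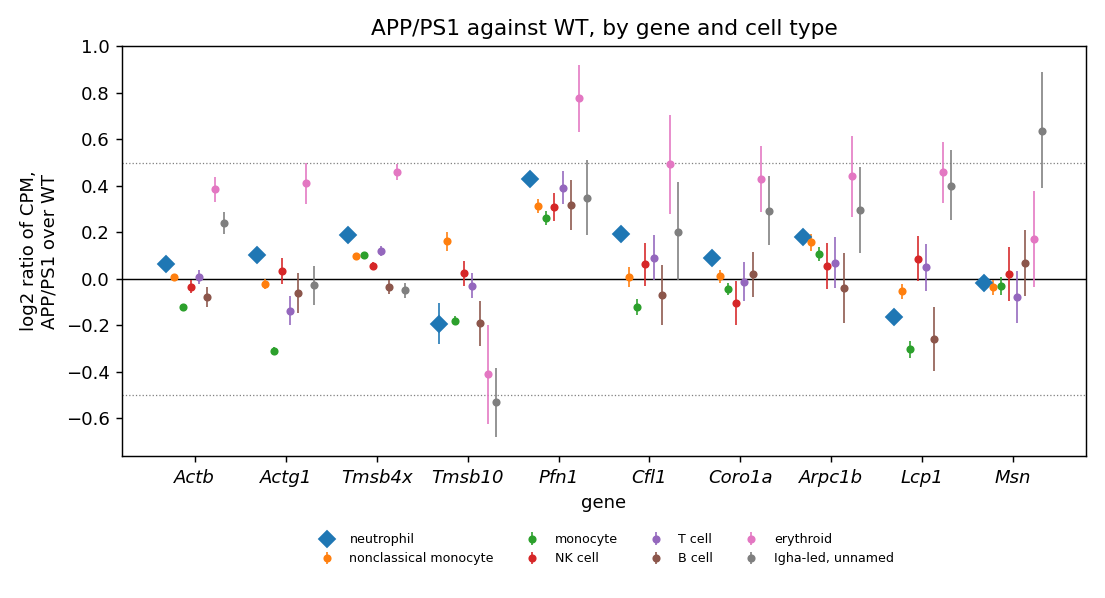
Log2 ratio of CPM in APP/PS1 over WT for each member by cell type, with 95% counting intervals and dotted lines at -0.5 and 0.5. Pfn1 lies above 0 in all 8 ranked types, at 0.43 in neutrophils, and no member passes a dotted line in neutrophils.

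Within the neutrophils 7 clusters were found, numbered by size. Cluster 0 (5975 cells) was led by Stfa2 and Retnlg, cluster 1 (3814) by platelet genes, cluster 2 (3281) by Clec4n and Icam1, cluster 3 (1994) by interferon genes and cluster 4 (1630) by Rgs1 and Ccl2. Cluster 5 (389) was led by the secondary-granule genes Camp, Ngp and Ltf, and cluster 6 (88) by mitochondrial genes. Members were left out of the genes clustered on.

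Tmsb4x was highest in cluster 1, at 35171 (WT) and 40174 CPM (APP/PS1), and lowest in cluster 5, at 24957 and 26471 CPM. Against other neutrophils, Tmsb4x in cluster 5 was -0.32 log2 as the mean of the libraries. Without abundant gene classes in library size it was -0.02, and cluster 2 was then lowest at -0.17. Cluster 1 also held the most platelet marker UMIs, 2628 and 2785 CPM, and its share of neutrophils was 18.8% in WT and 24.9% in APP/PS1. Their part in the level of Tmsb4x was not tested.

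Msn also differed among the clusters, in the same order in both libraries for the 3 clusters named next. It stood at 854 and 869 CPM in cluster 2, 564 and 517 CPM in cluster 0, and 415 and 399 CPM in cluster 5. Tmsb10 ran the other way in cluster 5, at 167 and 196 CPM, and was lowest in cluster 4, at 68.5 and 59.3 CPM. Actb, Coro1a and Lcp1 kept to a narrower range, Actb from 11375 to 13174 CPM in WT. The lower summed level of cluster 5, -0.27 log2 against other neutrophils as the mean of the libraries, turned to 0.03 when abundant gene classes were left out of library size.

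Most genotype differences were also seen within clusters. Pfn1 was higher in APP/PS1 by 0.38 to 0.45 in clusters 0 to 5, and by 0.28 (-0.02 to 0.59) in cluster 6. Tmsb4x was higher in all 7 clusters, from 0.08 (0.06 to 0.11) in cluster 5 to 0.26 (0.20 to 0.33) in cluster 6. Lcp1 was lower in each cluster, from -0.16 to -0.14, and only in cluster 6, at -0.15 (-0.39 to 0.09), did the interval include 0. These 3 genes thus kept their direction throughout. Cluster 5 departed from the rest for Actg1, which was lower there at -0.10 (-0.17 to -0.04) and higher in the other 6. Cfl1 in cluster 5, at -0.06 (-0.21 to 0.09), and Actb there had intervals that included 0. Tmsb10 had values below 0 in clusters 0 to 4, from -0.38 (-0.62 to -0.14) in cluster 2 to -0.21 (-0.46 to 0.04) in cluster 4, with intervals that included 0 in clusters 3 and 4. Its values lay on the other side of 0 in cluster 5, at 0.23 (-0.06 to 0.53), and in cluster 6, at 0.47 (-0.68 to 1.71), and both intervals included 0. Without cluster 1 the summed members differed by 0.12.

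**Figure D5:**
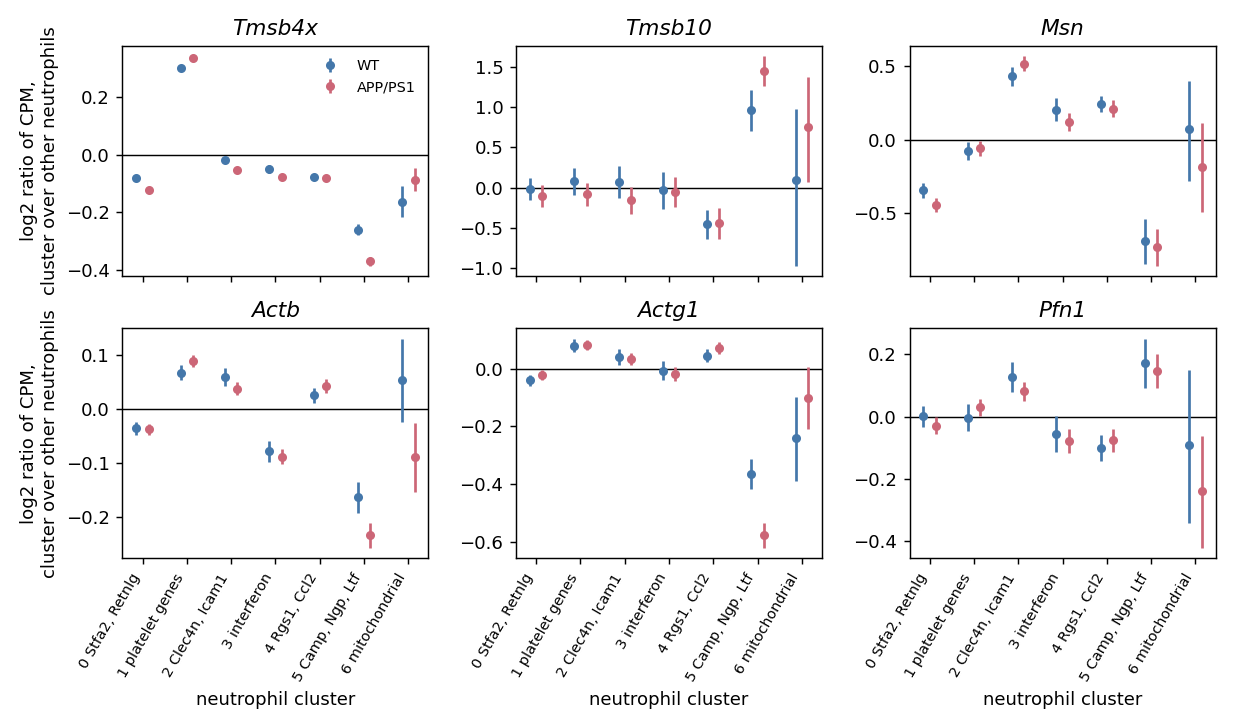
Log2 ratio of CPM in each neutrophil cluster over all other neutrophils of the same library for 6 members, with 95% counting intervals and a separate vertical scale in each panel. Tmsb4x is highest in cluster 1 (0.30 in WT and 0.33 in APP/PS1), Msn in cluster 2 (0.43 and 0.52) and Tmsb10 in cluster 5 (0.96 and 1.45).

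A wider list of 93 actin genes gave a similar picture. In neutrophils 77 had enough UMIs, and 2 were higher and 1 lower in APP/PS1 by over 0.5 log2, against 3.37% and 2.46% of all 6147 genes. In cells thinned to 1000 UMIs 1 of the list passed, but thinning leaves fewer UMIs and can lower the number of genes counted. The list's median was 0.04, against 0.06 for all genes. All 8 listed ARP2/3 genes were counted, with a median of 0.12, and none passed 0.5. The monomer binders Cap1 and Twf2 were higher by 0.28 and 0.38, and Twf1 was lower, at -0.20. Of the 77 counted genes 7 were higher and 6 lower by over 0.25 log2, a difference that 23.2% of all 6147 genes passed. The formins, which elongate unbranched filaments, had a median of -0.13 over the 4 counted of 6 listed genes.

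The 3 wider genes past the fold were all of low level. Coro2a, a coronin, had 16.4 (WT) and 8.69 CPM (APP/PS1) neutrophils, a difference of -0.92 (-1.16 to -0.68). Tpm2, a tropomyosin, had 5.65 and 9.33 CPM, and Myl9, a myosin light chain, 73.3 and 111 CPM. In cluster 1 Myl9 stood at 235 and 281 CPM and Tpm2 at 23.5 and 31.4 CPM, and in platelets Myl9 reached 1213 and 1749 CPM. The part of platelet RNA in these 2 differences was not tested, and Myl9 was also higher in APP/PS1 in cluster 0, by 0.46 (0.24 to 0.69).

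Read by cell type, the 2 most abundant wider genes of each role fell into several patterns. Neutrophils were highest in both libraries for Gmfg, a relative of cofilin that acts on branches, at 1203 (WT) and 1301 CPM (APP/PS1), against 647 and 780 CPM in the Igha-led cluster as the next type. The same held for Zyx, a protein of adhesion sites, at 917 and 912 CPM, where B cells had 122 and 97.3 CPM. Cap1, which recycles monomers, stood at 427 and 520.1 CPM in neutrophils, and its next type was the NK cells in WT at 294 CPM. Arpc3, Lsp1, Hcls1 and the myosin heavy chain Myh9 were also highest in neutrophils in both libraries. Nonclassical monocytes were instead highest for the crosslinker Flna, at 797 and 739 CPM, where neutrophils had 264 and 240.3 CPM. They also led for the integrin linker Tln1, at 971 and 992 CPM, against 401 and 420.3 CPM in neutrophils. NK cells led for the light chain Myl6, at 1877 and 1859 CPM, and for Tpm3, at 747 and 766 CPM. The 2 ARP2/3 genes read here therefore differed, Arpc3 being highest in neutrophils and Arpc2 in nonclassical monocytes, at 1355 and 1344 CPM. Erythroid cells were lowest for most of these genes. These orders rest on total UMIs as library size and were not recomputed under the other scalings.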

How the data were processed

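Blood neutrophils were profiled with droplet 3′ single-cell RNA-seq. The files deposited by the authors hold raw UMI counts for each gene in each cell; the submitters' processing notes name Cell Ranger 5.0.0 and mm10. Cells between the 5th and 95th percentile of genes and UMIs of their library, with at most 10% mitochondrial UMIs, were kept, as were genes in at least 3 cells. Cells were clustered with Seurat 5.3.0 (2000 variable genes without the actin genes, 15 components, resolution 0.2), and neutrophils again after integration. Clusters were named from marker lists, by rules settled after a first clustering was seen. Scrublet (scanpy 1.11.5) scores were kept as information, with the top 8% per library marked and not removed. Counts were summed per library and cell type. Intervals are exact (Poisson, Clopper-Pearson or conditional binomial) and were tested on simulated data. edgeR 4.0.16 gave TMM library sizes only. All 10 members were named, together with wider-list genes past 0.5 log2 with 200 UMIs, the most abundant of each role, and the 5 genes most like the members' mean. Members and lists were chosen with earlier results of these data known. Twf1, Jun and Pmaip1 were named after their values were seen. Gene coordinates are from GENCODE M21.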

Additional observations from a re-analysis of the deposited data

Results flagged for a closer look

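A pair of members moved in opposite directions between genotypes in different cell types, each with a counting interval away from 0. Actg1 was higher in APP/PS1 erythroid cells by 0.41 log2 and lower in APP/PS1 monocytes, at -0.31. Lcp1 was higher in APP/PS1 erythroid cells by 0.46 and in the Igha-led cluster by 0.40, and lower in monocytes at -0.30 and in B cells at -0.26. The median of all counted genes was 0.19 in erythroid cells and 0.10 in the Igha-led cluster. It was -0.04 in monocytes and 0.02 in B cells. The difference between types was not tested, since each type had 1 library per genotype. The neutrophil markers summed to 33636 (WT) and 41119 CPM (APP/PS1) erythroid cells, and to 62163 and 51050.5 CPM in the Igha-led cluster. In monocytes they summed to 11730 and 8494 CPM and in B cells to 12886 and 6509 CPM, and their part in these values was not tested.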

How the results depend on the processing

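No paired analysis was possible because each genotype had 1 library, and for the same reason no library could be left out. The summed members in APP/PS1 against WT neutrophils (0.14) became 0.15 with members left out of library size, 0.094 with TMM, 0.095 without abundant gene classes and 0.12 without the cluster led by platelet genes, an alternative chosen after seeing the data. At a fold of 0.25, which 23.2% of the 6147 counted genes passed, the members past it went from 0 to 1 of 10. The wider list went from 3 to 13 of its 77 counted genes at that fold. It went to 1 in cells thinned to 1000 UMIs and to 5 with at least 50 UMIs. These last settings can also change which genes are counted, so 1 and 5 cannot be set directly against 3.

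The summed members in T cells against neutrophils (-0.68) became -0.63 without percentile limits, -0.66 with limits over both libraries, -0.74 without the top doublet scores, -0.71 with members left out of library size, -1.58 with TMM, -0.51 without abundant gene classes, -0.72 as a mean over cells, -0.72 in thinned cells and -0.63 without the platelet-gene cluster. The all-gene median of that comparison moved from 0.25 to -0.65 with TMM. The log2 Actg1 to Actb ratio there (-0.56) became -0.72 without the top doublet scores, -0.68 as a mean over cells and -0.72 in thinned cells. That of Tmsb10 to Tmsb4x (5.78) became 5.71 without percentile limits, 5.95 without the top doublet scores, 5.85 as a mean over cells and 5.92 in thinned cells.

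Cluster 5 against other neutrophils (-0.27) became -0.29 without percentile limits, -0.28 with members left out of library size, -0.15 with TMM, -0.24 as a mean over cells, -0.23 in thinned cells and -0.32 without integration, and turned to 0.028 without abundant gene classes. The cause was not tested. Of the 10 members in APP/PS1 against WT neutrophils, Msn alone changed sign, from -0.06 to 0.03, and its interval had included 0. Without the top doublet scores, the summed members in erythroid cells went from 0.43 to 0.68, an alternative also chosen after seeing the data. The all-gene median in erythroid cells was 0.19 before that removal.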

Other observations

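Acta2, the smooth muscle actin, stood at 60.4 (WT) and 64.5 CPM (APP/PS1) neutrophils, above each of the 7 other ranked types, of which the highest was the Igha-led cluster at 29.1 CPM in WT. Reads shared with the other actins could not be told apart from Acta2 transcripts in these counts.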
